A study of Mus musculus with 15 samples.

Results

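The transcripts examined were those of 10 hypoxia and glycolysis genes out of the 20207 genes listed for every sample: Slc2a1, Hk1, Hk2, Pfkfb3, Ldha, Pdk1, Vegfa, Bnip3, Egln3 and Ndrg1. They were taken by symbol from a list of genes known to respond to HIF; the rule uses no measured value, but the list was drawn up with earlier results of these data known. HIF is a transcription factor made of an oxygen-labile alpha subunit and the constant partner ARNT. In the presence of oxygen the prolyl hydroxylases of the EGLN family modify the alpha subunit, VHL then directs it to the proteasome, and when oxygen is short HIF accumulates and raises glucose uptake, glycolysis, angiogenic signaling and mitophagy. Fibroblasts kept in normal oxygen can also express such genes, and glycolysis runs in proliferating cells.

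The samples were NIH3T3 cells, a mouse embryonic fibroblast line, stably expressing DD-sfGFP, in which superfolder GFP carries a destabilizing domain (DD) made from FKBP. The DD is folded while the ligand Shield-1 (S1) is bound. All groups carried the transgene and were grown in S1, and according to the study's methods the transfected cells were sorted for high GFP. Group cont (5 samples) stayed in S1 and is labelled with no stress at time 0. Groups DD 45min (3 samples), DD 135min (3 samples) and DD 405min (4 samples) were harvested 45, 135 and 405 min after S1 was withdrawn, which the methods describe as the addition of purified FKBP protein. The labels give no oxygen treatment. By RT-qPCR the paper reports no significant change after S1 withdrawal in a GFP-only line, for the transcripts measured there. Cells with GFP alone were not analysed here, so in these samples unfolding of the DD and the added FKBP protein cannot be told apart. In such bulk samples, fewer cells expressing a gene and less RNA per cell cannot be told apart either. The labels do not say whether replicates were separate cultures, so p-values measure only the spread between these samples.

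Totals ranged from 6652539 counts (cont replicate 3) to 30258404 counts (DD 45min replicate 1). The libraries fell into 2 sets that the groups did not explain. In 5 libraries (cont replicate 2, DD 45min replicate 3 and DD 405min replicates 1, 2 and 4) GC-rich transcripts took a larger share than in the other 10. These 5 are called library set 2, and the first principal component, with 56% of the variance, placed them apart from set 1. DD 405min therefore had 3 of 4 libraries in set 2 and cont had 1 of 5, so the results at 405 min are also given with the set as a covariate or within a set. Cont replicate 3 stood apart as well, with 156 genes listed at 0 that had a normalised count of at least 3 CPM (counts scaled to a common library total) in each of the other 14 libraries. The 7 fibroblast markers were present in every library at 56.1 CPM or more, while epithelial, endothelial and blood markers reached at most 3.83 CPM.

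HIF binds the core motif ACGTG or GCGTG. The RefSeq promoter table (assembly GRCm38.p6, a later build than that of the deposited files) held 14 start sites for 9 of the 10 genes, and the 250 bases before each start were searched on both strands, with overlapping matches counted as 1 site. A site was present in 11 of the 14 windows, against 38.6% of all 32851 windows and 57.4% of the windows of tested genes. The promoters of the 3 genes whose decrease was most stable (Ldha, Bnip3 and Pdk1) and of Egln3, which moved the other way, are shown 5′ to 3′ on the strand of the gene, with the matches in capitals. CACGTG contains ACGTG on both strands and counts as 1 site.
Ldha, chr7:46845554-46845803, plus strand: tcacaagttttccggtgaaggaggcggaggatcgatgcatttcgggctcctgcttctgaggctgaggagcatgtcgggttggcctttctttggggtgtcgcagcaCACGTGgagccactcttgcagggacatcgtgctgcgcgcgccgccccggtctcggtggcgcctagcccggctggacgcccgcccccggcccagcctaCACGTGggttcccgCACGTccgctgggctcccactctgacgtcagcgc
Bnip3, chr7:138909507-138909756, minus strand: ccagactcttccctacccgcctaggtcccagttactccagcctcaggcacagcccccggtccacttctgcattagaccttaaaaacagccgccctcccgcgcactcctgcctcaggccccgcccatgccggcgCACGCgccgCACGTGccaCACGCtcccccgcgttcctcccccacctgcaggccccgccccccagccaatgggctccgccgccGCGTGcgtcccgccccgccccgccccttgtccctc
Pdk1, chr2:71872974-71873223, plus strand: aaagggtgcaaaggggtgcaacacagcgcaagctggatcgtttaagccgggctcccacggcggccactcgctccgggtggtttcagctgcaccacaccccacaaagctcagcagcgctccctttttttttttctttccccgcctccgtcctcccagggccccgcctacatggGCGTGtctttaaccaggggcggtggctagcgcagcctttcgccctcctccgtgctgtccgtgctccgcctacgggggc
Egln3, chr12:54203875-54204124, minus strand: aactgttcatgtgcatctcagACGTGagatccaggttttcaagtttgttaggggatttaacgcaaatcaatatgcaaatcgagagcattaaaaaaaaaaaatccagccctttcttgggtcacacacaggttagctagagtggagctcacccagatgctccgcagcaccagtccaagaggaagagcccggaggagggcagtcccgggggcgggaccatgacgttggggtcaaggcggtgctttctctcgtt
The Ldha window held 3 sites and the Bnip3 window 4, and no other of the 14 windows held 3 or more. Of the windows of tested genes, 9.3% held 3 or more, and a difference from this share was not tested. The windows of Vegfa, which also fell, are not shown and held 0 and 2 sites. Pdk1 and Egln3 held 1 each, although one fell and the other rose. The table lists a further start for Ldha and for Pdk1, whose windows are not shown and held 1 and 0 sites. A match describes letters in the window and is not a measured binding site.

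At 405 min the 10 transcripts did not move in 1 direction. Of the 9 genes with a count in every sample, edgeR's quasi-likelihood test called 4 lower than cont (Pdk1, Ldha, Bnip3 and Vegfa) and 2 higher (Hk1 and Egln3), with Benjamini-Hochberg adjusted p under 0.05 over 10276 genes. Across all tested genes 13.4% were called lower and 9.99% higher. All 4 DD 405min samples lay below all 5 cont samples for Pdk1, Ldha, Bnip3 and Vegfa, a pattern found in 6.43% of tested genes, and above all of them for Egln3, found in 6.75%. With the library set as a covariate Pdk1, Ldha and Bnip3 were called lower (6.87% of all tested genes) and none higher (6.17%), while DESeq2 called 4 lower (19.2%) and 3 higher (14.0%).

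**Figure D1:**
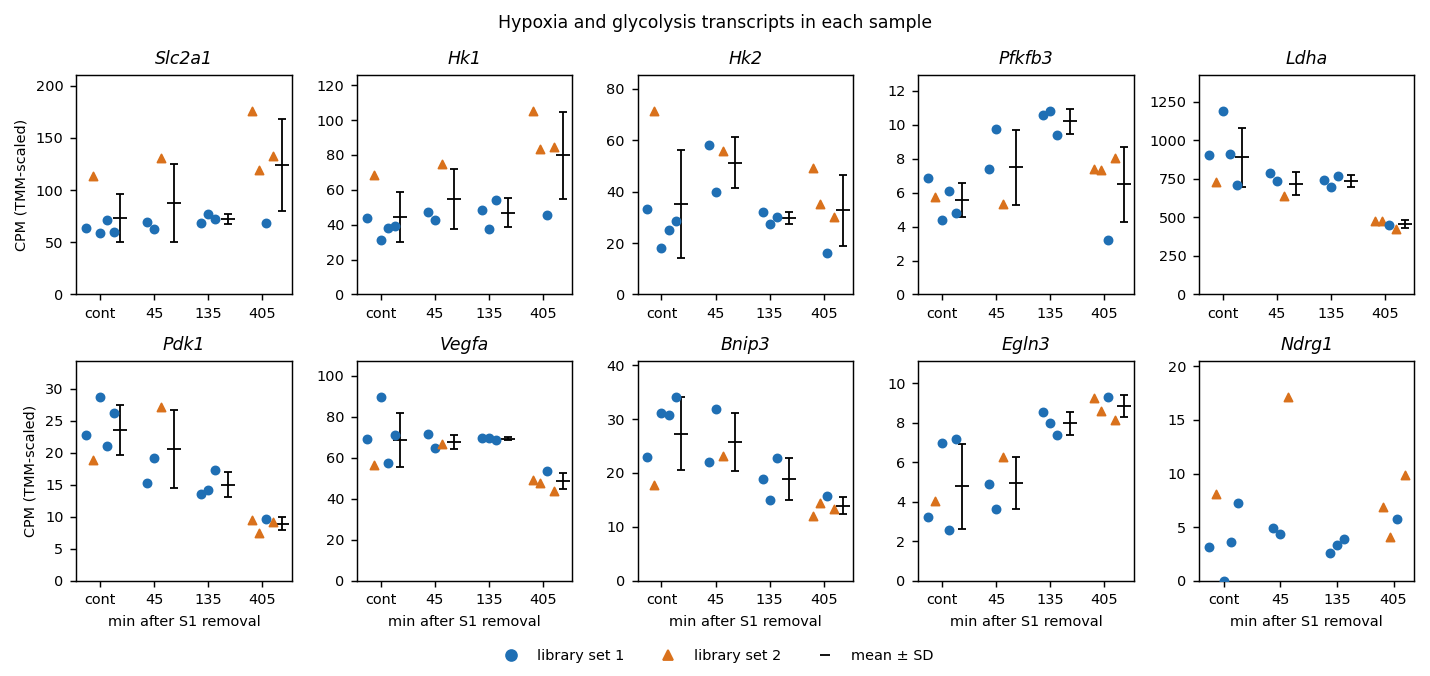
Level of each of the 10 transcripts in each of the 15 samples, in TMM-scaled CPM (vertical axes start at 0), by minutes after S1 removal. Circles are library set 1, triangles library set 2, and bars are mean ± SD of a group (not drawn for Ndrg1, listed at 0 in 1 library). Ldha, Pdk1, Vegfa and Bnip3 lay below every cont sample at 405 min, whereas the high Slc2a1 and Hk1 samples were triangles.

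Pdk1 encodes pyruvate dehydrogenase kinase 1, which phosphorylates pyruvate dehydrogenase and so restrains entry of pyruvate into the TCA cycle (mm9 chromosome 2, 71711329 to 71741914). Its cont levels were 22.8, 18.9, 28.6, 21.1 and 26.2 CPM. At 405 min the levels were 9.54, 7.44, 9.56 and 9.18 CPM, from 99 to 167 counts. Every late sample was therefore well below the lowest cont sample, and the late samples differed little among themselves. The decrease was 2.63-fold (log2 fold change -1.40, SE 0.21, adjusted p = 0.000551). It was -1.42 with the set as a covariate (adjusted p = 0.000611). Within set 2, which held a single cont sample, it was -1.13. Within set 1, which held a single late sample, it was -1.37, and the call was not kept there.

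Ldha encodes the lactate dehydrogenase subunit that favours conversion of pyruvate to lactate (mm9 chromosome 7, 54101220 to 54110996). Its cont levels were 907.3, 732.4, 1189.5, 912.9 and 711.4 CPM, and its DD 405min levels were 477.5, 478.1, 449.5 and 424.4 CPM. The late group was again narrow and entirely below cont. The log2 fold change was -0.96 (SE 0.15, adjusted p = 0.000857), a 1.95-fold decrease, and -0.86 without cont replicate 3, the highest sample. The gene has processed copies in the genome, so its reads may have been shared between copies. The call was kept with the set as a covariate (-0.85) but not within set 1 (-1.06, adjusted p = 0.0518) or set 2 (-0.68, adjusted p = 0.108), where 1 sample stood on one side.

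Bnip3, which encodes a mitochondrial receptor for mitophagy (mm9 chromosome 7, 146082519 to 146101189), had cont levels of 22.9, 17.8, 31.2, 30.7 and 34.0 CPM. At 405 min it had 12.0, 14.4, 15.7 and 13.3 CPM. The lowest cont sample was the one from set 2, close to the late samples. The log2 fold change was -0.98 (SE 0.22, adjusted p = 0.00811) and -0.73 with the set as a covariate (adjusted p = 0.0331). It was only -0.44 within set 2, which held a single cont sample. Pdk1, Ldha and Bnip3 were called lower in 9 of 9 fits that each left out 1 compared sample.

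Vegfa encodes the angiogenic growth factor VEGF-A (mm9 chromosome 17, 46153943 to 46162112). Its levels were 69.3, 56.4, 89.3, 57.2 and 70.9 CPM in cont and 49.3, 47.7, 53.7 and 43.7 CPM at 405 min. The groups did not overlap, but the gap between the lowest cont and the highest late sample was narrow. The log2 fold change was -0.50 (SE 0.14, adjusted p = 0.0256), the smallest of the called decreases. It was -0.38 with the set as a covariate (adjusted p = 0.0906) and was called in 5 of 9 fits that left out a sample; the call was lost without cont replicate 1 (adjusted p = 0.0513) and without DD 405min replicates 1, 2 or 4 (0.0668, 0.0681 and 0.087). Its deposited coordinates and length differed between files, longer by a factor of 1.26 in 11 of the 15. The shorter form was in cont replicates 1, 3 and 4 and DD 45min replicate 2 and in no DD 405min file, and its part in the decrease was not tested.

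On the RPKM scale deposited by the authors, which is per gene length and uses their own total, the DD 405min samples stayed below cont for Pdk1 (0.776 to 0.924 against 1.37 to 2.85 RPKM) and Ldha (130.1 to 162.5 against 185.6 to 266.1 RPKM). Bnip3 then overlapped, at 2.92 to 4.45 RPKM against 4.37 to 10.8 RPKM in cont.

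Egln3 encodes the HIF prolyl hydroxylase PHD3 (mm9 chromosome 12, 55279969 to 55304835). It was a low transcript, at 3.20, 4.01, 6.97, 2.58 and 7.17 CPM in cont, 8.54, 7.99 and 7.37 CPM at 135 min and 9.26, 8.59, 9.27 and 8.14 CPM at 405 min, from 34 to 202 counts over all samples. All samples of both later groups exceeded every cont sample. The log2 fold change at 405 min was 0.89 (SE 0.30, adjusted p = 0.0421), a 1.86-fold increase. The size held with the set as a covariate (0.88, adjusted p = 0.0991) and within sets 1 and 2 (0.90 and 1.10), but the call did not, and it was made in 3 of the 9 fits that left out a sample (those without cont replicates 2, 3 or 5). On the RPKM scale the late samples (1.5 to 1.74) touched the highest cont sample (1.51).

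The glucose transporter Slc2a1 (GLUT1, mm9 chromosome 4, 118781350 to 118809934) had 63.4, 113.1, 59.1, 71.4 and 60.1 CPM in cont and 175.7, 118.9, 68.3 and 132.4 CPM at 405 min. The cont sample at 113.1 CPM was in set 2, and the late sample at 68.3 CPM was the one in set 1. Hexokinase 1 (Hk1, mm9 chromosome 10, 61731603 to 61803169), the housekeeping enzyme that phosphorylates glucose, had 43.8, 68.5, 31.4, 37.9 and 39.4 CPM in cont and 105.1, 83.5, 45.5 and 84.4 CPM at 405 min. For both genes the late sample of set 1 lay within the range of all cont samples, and all 4 late samples were above the cont median. Within set 1 the single late Hk1 sample (45.5 CPM) was above the cont samples (31.4 to 43.8 CPM). That of Slc2a1 (68.3 CPM) was among them (59.1 to 71.4 CPM). Within set 2 the late samples of both genes were above the single cont sample.

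Hk1 had a log2 fold change of 0.85 (SE 0.27, adjusted p = 0.0338) and Slc2a1 of 0.75 (SE 0.28, adjusted p = 0.0604). With the set as a covariate they were 0.36 (adjusted p = 0.142) and 0.21 (adjusted p = 0.356). When single samples were left out, Hk1 and Slc2a1 were called in 2 of 9 fits each, those without cont replicate 2 or DD 405min replicate 3, and in the other 7 the adjusted p of Hk1 was 0.0634 to 0.124. Between the sets Slc2a1 was 0.95, Hk1 0.86 and Hk2 1.02 higher in set 2 on the log2 scale, and these 3 of the 9 tested genes were called, against 50.1% of all tested genes. The other 6 differed by -0.41 to 0.18 and were not called. Slc2a1, Hk1 and Hk2 were also the most GC-rich of the 10, at 55.0%, 55.4% and 52.3% of exonic bases. Ldha (51.5%) and Egln3 (51.4%) were close to Hk2 in GC, but differed by only -0.19 and 0.04 between the sets. An offset for GC content left log2 fold changes of 0.32 for Hk1 (adjusted p = 0.0736) and 0.23 for Slc2a1 (adjusted p = 0.272).

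**Figure D2:**
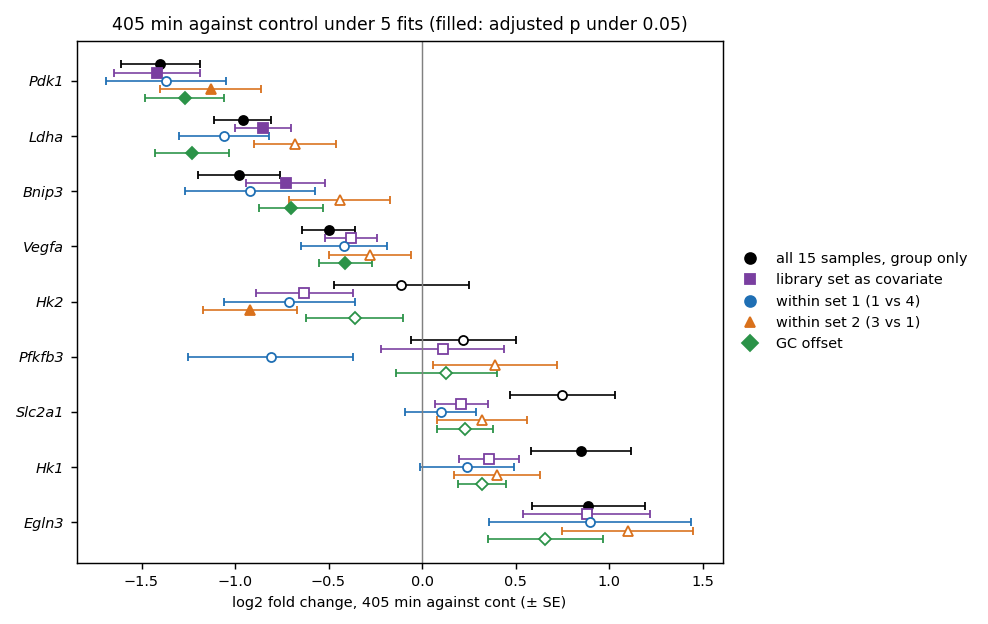
Log2 fold change of DD 405min against cont for 9 genes (horizontal axis, ± SE) under 5 fits, with symbols filled where the adjusted p is under 0.05. Pdk1, Ldha, Bnip3, Vegfa and Hk2 had values below 0 under all 5 fits, and Egln3 had values above 0. Slc2a1 and Hk1 moved toward 0 once set or GC was included, and Hk2 moved away from 0 (-0.11 in all samples, -0.71 and -0.92 within sets).

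Hk2 encodes the inducible hexokinase bound to mitochondria (mm9 chromosome 6, 82675021 to 82724448). Its levels were 33.2, 71.3, 18.0, 25.1 and 28.4 CPM in cont and 49.3, 35.3, 16.2 and 30.0 CPM at 405 min. The groups overlapped widely, with a log2 fold change of -0.11 (SE 0.36, adjusted p = 0.825). Within set 1 the single late sample (16.2 CPM) was below all 4 cont samples, and within set 2 all 3 late samples (30.0 to 49.3 CPM) were below the single cont sample at 71.3 CPM. Its log2 fold change was then -0.71 within set 1 and -0.92 within set 2, where 1 sample stood on one side. With the set as a covariate it was -0.63 (adjusted p = 0.12).

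Because Hk1 and Hk2 both differed between the sets, their ratio was also taken within each library from the deposited RPKM values. This measure was chosen after the values were seen and was not tested. The Hk2 level was 0.571, 0.785, 0.432, 0.50 and 0.544 of the Hk1 level in cont and 0.354, 0.318, 0.269 and 0.268 at 405 min. The 4 late libraries were below every cont library, in both sets. In CPM the denominator Hk1 was itself higher than cont in all late samples within each set. A fall of Hk2 and a rise of Hk1 therefore cannot be told apart in the ratio. The share of other gene pairs separated in this way was not taken. At 45 min the ratio was 0.929, 0.707 and 0.566, and at 135 min 0.499, 0.545 and 0.418.

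**Figure D3:**
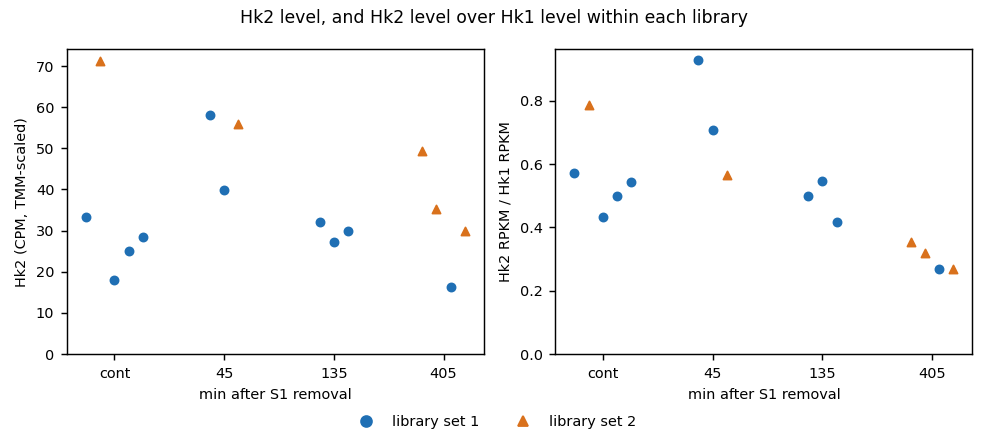
Left, Hk2 level in TMM-scaled CPM; right, Hk2 RPKM divided by Hk1 RPKM in the same library, both against minutes after S1 removal. Each point is 1 of 15 samples, with circles for library set 1 and triangles for set 2; on the right the 4 samples at 405 min (0.268 to 0.354) lie below all 5 cont samples (0.432 to 0.785), which is not so on the left.

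Pfkfb3 makes fructose-2,6-bisphosphate, the allosteric activator of phosphofructokinase (mm9 chromosome 2, 11393062 to 11423694). It had 6.84, 5.76, 4.36, 6.12 and 4.78 CPM in cont, 10.6, 10.8 and 9.38 CPM at 135 min and 7.4, 7.35, 3.19 and 8.03 CPM at 405 min, from 25 to 257 counts over all samples. The 135-min samples were the highest group and exceeded all cont samples, and the 405-min samples overlapped with cont. The log2 fold change was 0.87 at 135 min (SE 0.29, adjusted p = 0.205) and 0.22 at 405 min (SE 0.28, adjusted p = 0.554).

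Ndrg1, a stress-responsive gene of the NDRG family (mm9 chromosome 15, 66760880 to 66801203), was listed at 0 in cont replicate 3 and so did not enter the test. Its other cont levels were 3.13, 8.07, 3.60 and 7.28 CPM. It had 4.92, 4.39 and 17.1 CPM at 45 min, 2.62, 3.29 and 3.94 CPM at 135 min and 6.91, 4.06, 5.80 and 9.90 CPM at 405 min. The highest value was again in a set 2 library, and the late samples overlapped with cont. Without the filter on low counts the log2 fold change at 405 min was 0.54 (SE 0.62, adjusted p = 0.611), and without cont replicate 3 it was 0.24 (adjusted p = 0.71).

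To ask when the changes began, the earlier time points were compared with the same cont samples, so the 3 comparisons are not independent. At 45 min none of the 9 tested genes was called, as for all tested genes (0.0%). None reached an unadjusted p under 0.05, and every gene overlapped with cont, where 0.467% of tested genes had all samples above cont and 0.448% all samples below. DESeq2 called none of the 9 (0.0195% of all genes higher, 0.0389% lower), nor did the fit with the set as a covariate (0.0292% and 0.00973%). Log2 fold changes ran from -0.31 for Ldha (SE 0.16, adjusted p = 0.698) to 0.54 for Hk2 (SE 0.38, adjusted p = 0.698).

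At 135 min edgeR again called none of the 9, against 0.564% higher and 0.895% lower over all tested genes, and none was called by DESeq2 (1.57% higher, 2.62% lower) or with the set as a covariate (3.06% and 4.88%). Pfkfb3, Egln3, Pdk1 and Bnip3 were the 4 genes with an unadjusted p under 0.05. The share of all tested genes under this unadjusted threshold was not taken, so the count is not read as a result. All 3 samples of Pfkfb3 and Egln3 were above cont (4.79% of tested genes) and all 3 of Pdk1 were below (4.75%). Pdk1 had 13.6, 14.2 and 17.3 CPM, between the cont and 405-min levels, with a log2 fold change of -0.64 (SE 0.22, adjusted p = 0.219). Egln3 had 0.75 (SE 0.32, adjusted p = 0.357) and Bnip3 -0.53 (SE 0.24, adjusted p = 0.385). Ldha (-0.28, adjusted p = 0.537) and Vegfa (0.02, adjusted p = 0.984) were nearer to cont.

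**Figure D4:**
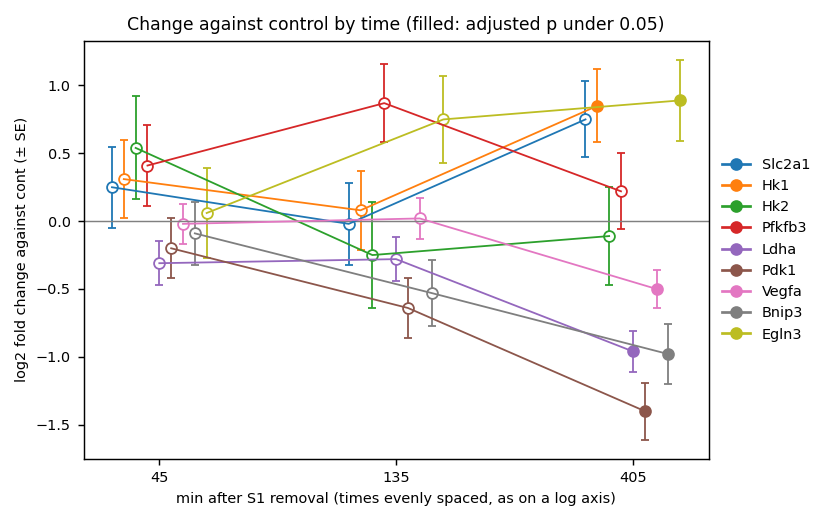
Log2 fold change against cont (vertical axis, ± SE) at 45, 135 and 405 min for the 9 tested genes; the times are evenly spaced, as on a log axis, and filled symbols have an adjusted p under 0.05. No symbol is filled before 405 min; Pdk1 and Bnip3 had lower values at each later time, and Pfkfb3 was highest at 135 min (0.87).

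The late and middle groups were also compared directly. Ldha was lower at 405 than at 135 min (477.5, 478.1, 449.5 and 424.4 against 741.9, 694.8 and 769.0 CPM), with a log2 fold change of -0.68 (SE 0.17, adjusted p = 0.0314). It was the only gene called of 9, where 2.82% of all tested genes were lower and 2.24% higher. DESeq2 called 3 of the 9 lower and none higher (6.54% and 7.78% of all genes), and with the set as a covariate none was called (2.01% and 1.66%). Pdk1 (-0.75, adjusted p = 0.0648), Vegfa (-0.51, adjusted p = 0.0735) and Pfkfb3 (-0.65, adjusted p = 0.185) also had all late samples below all middle samples, as did 17.6% of tested genes. Ndrg1 had all late samples above (19.2%). The Ldha call was lost when any sample but DD 405min replicate 3 was left out (adjusted p 0.0662 to 0.122 without one of the others), and all 135-min libraries were in set 1, where the log2 fold change was -0.72 (adjusted p = 0.269).

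Levels of different genes were compared per length, as RPKM within each cont library relative to Slc2a1. Ldha was by far the most abundant, at 21.4 ± 8.02 (SD, n = 5) times the Slc2a1 level. Vegfa (0.924 ± 0.398) did not differ from Slc2a1 beyond its spread, and Bnip3 followed at 0.598 ± 0.237. The deposited Vegfa length differed between cont files, and with 1 length for all files Vegfa was at 0.788 ± 0.298. Hk1 was at 0.373 ± 0.0449, Hk2 at 0.213 ± 0.0614 and Pdk1 at 0.174 ± 0.0624, of which the last pair overlapped. Egln3 (0.0698 ± 0.0419) and Pfkfb3 (0.041 ± 0.0106) were the scarcest with a count in every library.

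The machinery of the pathway was read from a further list. Of 8 tested HIF regulators, 2 were higher at 405 min and 2 lower, where 9.99% and 13.4% of all tested genes were. The median log2 fold change was 0.35 against -0.001 for all genes, and 0.06 with the set as a covariate. Arnt2, a partner subunit of HIF alpha, was higher by 1.30 (SE 0.24, adjusted p = 0.00262) and Hif1an, the asparaginyl hydroxylase that inhibits HIF, by 1.03 (SE 0.35, adjusted p = 0.0437). Hif1a itself was at 374.6 ± 107.5 CPM (SD, n = 5) in cont and 217.4 ± 49.8 CPM (SD, n = 4) at 405 min. It fell by 0.78 on the log2 scale (SE 0.22, edgeR adjusted p = 0.0232), and the prolyl hydroxylase Egln1 had -0.40 (SE 0.13, adjusted p = 0.0362). With the set as a covariate Arnt2 alone was called (1.10, adjusted p = 0.00431), and Hif1a was at -0.41 (adjusted p = 0.103). Over all tested genes that fit called 6.17% higher and 6.87% lower.

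Of 22 tested further HIF targets, 6 were lower (13.4% of all tested genes) and 1 was higher (9.99%). The median was 0.0, and -0.16 with the set as a covariate. The lower genes were Ak4 (listed as Ak3l1), an adenylate kinase of the mitochondrial matrix, at -1.77, Ankrd37 at -1.58, Fam162a at -0.89, the collagen cross-linking enzyme Lox at -0.84, the collagen prolyl hydroxylase P4ha1 at -0.74 and the transferrin receptor Tfrc at -0.72. Mxi1, a MAX partner, was higher by 0.64. Ak4 fell in every late sample, from 32.7 to 71.8 CPM in cont to 10.1 to 16.0 CPM. With the set as a covariate Ak4, Lox, P4ha1 and Tfrc were still called, Bhlhe40 was also lower (-0.61), and Plod2 (0.58) was higher in place of Mxi1. Of all tested genes, 6.87% were lower and 6.17% higher in that fit. At 135 min edgeR called Adm (adrenomedullin) alone of this list in the fit by group, at 43.9, 46.9 and 48.1 CPM against 11.3 to 32.6 CPM in cont (1.15, SE 0.25, adjusted p = 0.0311), and at 405 min it was at 0.43 (adjusted p = 0.164). The fit by group called 0.564% of all tested genes higher at 135 min and 0.895% lower. A covariate for the set added 3 lower calls at 135 min, Ankrd37 (-2.05, adjusted p = 0.0119), Bhlhe40 (-1.06, adjusted p = 0.00183) and Ccng2 (-1.07, adjusted p = 0.041), and DESeq2 called 3 lower as well. Lower calls were 4.88% of all tested genes with the covariate and 2.62% with DESeq2. Ankrd37 was near the floor, with means of 3.33 CPM in cont, 0.895 CPM at 135 min and 1.12 CPM at 405 min. The 7 fibroblast markers summed to 9348.4 to 11830.2 CPM at 405 min and 11842.4 to 13813.4 CPM in cont, and the part of this shift in the decreases of Lox and P4ha1, which act on collagen, was not tested.

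Of 21 listed glycolysis genes outside the 10, 14 were tested, and the others, Eno1 among them, were listed at 0 in at least 1 sample. Among the 14 tested, 3 were higher (9.99% of all tested genes), none was lower (13.4%) and the median was 0.24, or 0.30 with the set as a covariate. They were Pfkm (1.76, adjusted p = 0.0105), Pkm (listed as Pkm2, 1.60, adjusted p = 0.0416) and Gpi1 (1.17, adjusted p = 0.0202). All 3 kept the call with the set as a covariate, at 1.15, 0.68 and 0.74, while Pfkl was then called lower (-0.51, adjusted p = 0.0313). The shares of all tested genes in that fit were 6.17% higher and 6.87% lower. Pkm was at 132.1 to 312.8 CPM in set 1 and 656.5 to 1481.9 CPM in set 2. Phosphoglycerate kinase (Pgk1), by contrast, was at 555.7 to 677.8 and 567.6 to 677.9 CPM in the sets, and had a log2 fold change of 0.18 at 405 min (adjusted p = 0.172).

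Pdk1 acts on pyruvate dehydrogenase, and of 10 tested genes for this complex, its other switches and the pyruvate carrier, 2 were higher and 3 lower (9.99% and 13.4% of all tested genes), with a median of -0.24, or -0.12 with the set as a covariate. The subunits Pdhx (0.97, SE 0.13, adjusted p = 0.000336) and Pdhb (0.85, SE 0.12, adjusted p = 0.000323) rose, while Pdha1, the subunit that Pdk1 phosphorylates, fell by 0.59 (SE 0.12, adjusted p = 0.00457). All 3 kept the call with the set as a covariate, where 6.17% of all tested genes were higher and 6.87% lower. The mitochondrial pyruvate carrier genes Mpc2 (listed as Brp44) and Mpc1 (listed as Brp44l) were at -1.37 and -1.13, and lost the call with the set (-0.59 and -0.43). The kinases Pdk3 (-0.46, adjusted p = 0.135) and Pdk4 (0.16, adjusted p = 0.446) did not pass.

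In the pentose phosphate pathway, which also draws on glucose 6-phosphate, 3 of 7 genes were higher and 1 lower (9.99% and 13.4% of all tested genes), with a median of 0.96, or 0.63 with the set as a covariate. Pgd was higher by 2.33 (adjusted p = 0.0159), Taldo1 by 2.21 (adjusted p = 0.000434) and G6pdx, the entry enzyme, by 0.89 (adjusted p = 0.00454), and Rpia had -0.88 (adjusted p = 0.0151). With the set as a covariate these were 1.62, 1.64, 0.63 and -0.66, and only the call of Rpia was lost (adjusted p = 0.0631). In that fit 6.17% of all tested genes were higher and 6.87% lower. At 135 min none of the 7 was called by edgeR, none at an unadjusted p under 0.05 and none by DESeq2. With the set as a covariate 2 were called higher, against 3.06% of all tested genes.

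**Figure D5:**
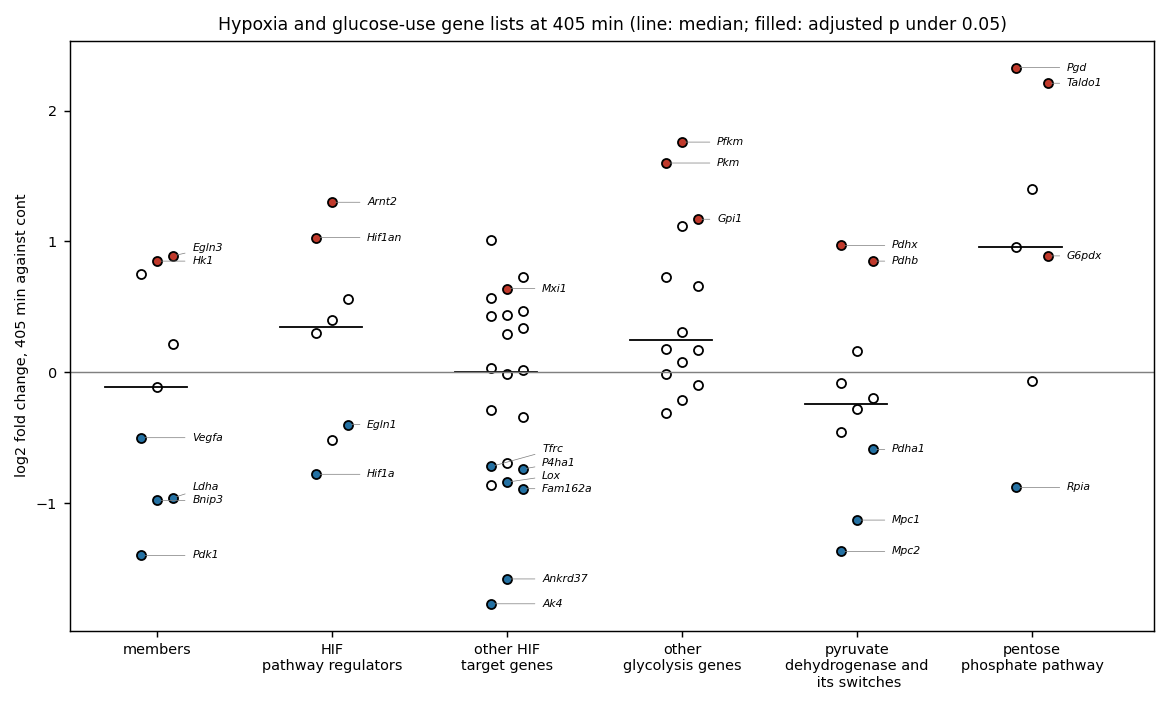
Log2 fold change of DD 405min against cont (vertical axis) for tested genes of 6 lists; each point is a gene, filled points have an adjusted p under 0.05 (red higher, blue lower), and short lines are list medians. The lists are mixed in direction, with medians from -0.24 (pyruvate dehydrogenase and its switches) to 0.96 (pentose phosphate pathway).

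The transcripts most like each called gene were sought among 8018 tested genes with a mean of at least 10 CPM, by Pearson's r of log2 CPM over the 15 samples after centring within each library set. The samples share groups and depth differences, so these values are descriptive. Ldha was closest to Kctd15 (0.97) and Hmga2 (0.97), Pdk1 to Timp3 (0.96) and Gramd4 (0.95), and Bnip3 to Tmtc4 (0.91) and Chd2 (0.89). Vegfa was closest to Ryk (0.91) and Btbd9 (0.88), Egln3 to Ncoa3 (0.93) and Nfe2l2 (0.86), and Hk1 to Cdc34 (0.89) and Hmg20b (0.88).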

How the data were processed

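mRNA-seq was available for 15 NIH3T3 samples in 4 groups, which were assigned from the sample titles. Per the methods, reads had been aligned by the authors to mm9 and quantified over RefSeq genes on DNAnexus; the aligner is not given in the sources used here. The labels name an Encore Complete RNA-seq kit and the methods also describe an in-house library preparation. The authors deposited expected counts (estimated, 8.7% to 15.6% of genes per sample with a fraction), RPKM, a Z score and a ratio of RPKM to its root mean square. The tests used the deposited expected counts, rounded to whole numbers because whole counts had been assumed. The RPKM deposited by the authors gave levels per length. The Z score and the ratio deposited by the authors were not used. The members, gene lists and tests were chosen with earlier results of these data known.

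The 10276 genes having 1 count or more in each sample were fitted with edgeR 4.0.16 in R 4.3.3 (TMM, quasi-likelihood, 1 term for group, all 15 samples), with Benjamini-Hochberg adjustment over all of them and a threshold of 0.05. CPM are TMM-scaled, and log2 CPM used a prior count of 2. Fold changes are log2 values from the fit. Alternatives were DESeq2 1.42.0, other filters and size factors, only the compared groups, a GC offset (spline with 5 degrees of freedom), library sets, a block on replicate number and leaving out each replicate. The library sets were defined from the data, at the widest gap (0.28) in the slope of log2 CPM on exonic GC over the libraries. The next gap (0.277) would separate cont replicate 3. Exonic GC came from NCBIM37 with GENCODE vM1 and covered 95.7% of tested genes. All 10 members are named, as are up to 5 genes higher and 5 lower from each list at 135 and 405 min and the 2 most similar genes of each called member; Pdk3, Pdk4, Pgk1, Pfkl, Bhlhe40, Ccng2, Plod2 and the later value of Adm were named after their values were seen. Of 22 replicate pairs none agreed within sampling noise (chi-square per degree of freedom 12 to 274.4), so each library counted as 1 sample. A gene of the list of further HIF targets is not reported here and was left out of its counts. The fits were tested on simulated data.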

Additional observations from a re-analysis of the deposited data

Results flagged for a closer look

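Single samples were compared with the rest of their group by Dixon's criterion in 20 groups of 4 or 5 samples, where chance alone flags about 1 in 20. In cont, Slc2a1 was at 113.1 CPM in replicate 2 and at 59.1 to 71.4 CPM in the other samples. Hk2 was at 71.3 CPM in the same replicate and at 18.0 to 33.2 CPM in the others. This replicate is the only cont library of set 2, in which both genes were higher in general. Without it the log2 fold change at 405 min was 0.96 for Slc2a1 (edgeR adjusted p = 0.00807) and 0.32 for Hk2. At 405 min, Pfkfb3 was at 3.19 CPM in replicate 3 (33 counts) and at 7.35 to 8.03 CPM in the other samples, and this replicate is the only DD 405min library of set 1.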

How the results depend on the processing

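Of 702 alternative values of the members' log2 fold changes, 580 kept their direction and side of the threshold, 61 lost the call, 10 gained it and 51 changed sign. Each change of sign concerned a value that had not been called. The cause of these shifts was not tested, except that fits within a set have fewer samples. Among the members, low counts limit Egln3, Pfkfb3 and Ndrg1.

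At 405 min, 2 members were higher and 4 lower than cont. The number higher was 1 without a filter, with filterByExpr and with the replicate block, and 0 with only the compared groups, the set as a covariate (with or without the filter), within set 1, within set 2 and with the GC offset (with or without the block); leaving out single replicates gave 0 to 3. The number lower was 0 within set 1, 2 within set 2, with the block and without a filter but with the set, and 3 to 4 when single replicates were left out. Against 135 min, the number lower (1) was 3 with DESeq2 and with only the compared groups, and 0 without a filter, with the set (with or without the filter), within set 1 and with the block (with or without GC); single replicates gave 0 to 1 lower and 0 to 2 higher. Over all genes, calls at 405 min ranged from 121 to 1438 higher and 94 to 1972 lower with all replicates, and from 418 to 2517 higher and 528 to 2463 lower when single replicates were left out, the highest without cont replicate 2 and the lowest without DD 405min replicate 1 (higher) or 4 (lower).

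The replicate numbers did not pair the samples: of 19 same-number pairs, 4 correlated above 0.1 (mean -0.11). The block is thus only an alternative.

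Signs changed as follows. At 45 min, Vegfa was 0.02 with the set and 0.01 with no filter and the set; Egln3 was -0.20 within set 1; within set 2 Bnip3 was 0.37, Hk2 -0.35, Pdk1 0.52, Pfkfb3 -0.12 and Vegfa 0.24; with GC Bnip3 was 0.05, Egln3 -0.12 and Slc2a1 -0.07; with the block Bnip3 was 0.07, and with block and GC Bnip3 was 0.17, Hk1 -0.03 and Slc2a1 -0.10. At 135 min, Hk2, Slc2a1 and Vegfa were 0.08, 0.21 and -0.02 with the set and 0.18, 0.19 and -0.04 within set 1; Hk2 was 0.09 and Slc2a1 0.22 with no filter and the set; Vegfa was -0.02 with the block and -0.05 with block and GC. At 405 min Pfkfb3 was -0.81 within set 1. For 405 against 135 min, Hk2 was -0.71 with the set, -0.12 with GC, -0.10 with block and GC and -0.73 with no filter and the set, where Slc2a1 was -0.02; within set 1 Hk1, Hk2 and Slc2a1 were -0.05, -0.89 and -0.10. Leaving out single replicates gave, at 45 min, -0.14 to 0.27 (Egln3), -0.08 to 0.08 (Vegfa), -0.27 to 0.01 (Bnip3) and -0.15 to 0.46 (Slc2a1); at 135 min, -0.40 to 0.18 (Hk2), -0.08 to 0.19 (Slc2a1), -0.05 to 0.13 (Vegfa) and -0.04 to 0.29 (Hk1); at 405 min, -0.38 to 0.32 (Hk2); and for 405 against 135 min, -0.13 to 0.36 (Hk2).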
